A study of Caenorhabditis elegans with 10 samples.

Results

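Fatty acid synthesis was represented on these arrays by 3 genes of Caenorhabditis elegans, chosen by name: fasn-1, which encodes the fatty acid synthase, elo-3, which encodes a fatty acid elongase, and fat-7, which encodes a stearoyl-CoA desaturase. They were 3 of the 145 genes that the authors' lists of changed transcripts allow to be named, through gene numbers that those lists pair with probe sets. Those lists had been drawn up from calls on these same arrays. Each gene had 1 listed probe set, 189768_at for fasn-1, 187255_at for elo-3 and 192578_at for fat-7, and all 3 were among the 22548 probe sets tested without a filter on low values. Neither probe sequences nor genome positions were analysed here.

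The study compared whole worms of the wild-type strain, variety Bristol, with worms carrying a nep-1 allele obtained by EMS mutagenesis. Both were kept at 20 °C on standard worm agar and fed the E. coli strain OP50. RNA from L3 larvae was hybridised to 2 wild-type and 2 mutant arrays, and RNA from adults to 3 and 3, which makes 10 one-colour Affymetrix arrays; the titles call the replicates biological. The labels do not give the ages in hours, the number of worms per sample, the position of the nep-1 lesion or whether the mutant strain had been outcrossed. The descriptions of larval mutant 1 and of adult mutants 2 and 3 carry different strain numbers, and the labels do not say whether these were the same strain. nep-1 encodes a neprilysin, a peptidase at the cell surface. On the log2 scale its probe set averaged 8.68 ± 0.69 (SD, n = 2) on larval wild-type arrays and 5.03 ± 0.25 (SD, n = 2) on larval mutant arrays. On adult arrays it averaged 6.73 ± 0.66 (SD, n = 3) for wild-type and 5.19 ± 0.20 (SD, n = 3) for the mutant.

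In C. elegans, as in other animals, fatty acid synthase builds saturated chains from acetyl-CoA and malonyl-CoA. Elongases then lengthen such chains, and desaturases put double bonds into them. The desaturase made by fat-7 turns stearoyl-CoA into oleoyl-CoA, which feeds membrane lipids, stored triglycerides and the longer polyunsaturated fatty acids. The gene is active in the intestine, the main fat store of the worm, and its transcript is known to fall during fasting and to depend on the nuclear receptor NHR-49. In RNA from whole worms, fewer cells of a type and less RNA per cell cannot be told apart.

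The arrays come in 5 pairs of 1 mutant and 1 wild-type array each, matched by how their descriptions are written. Among larvae these were wild-type 1 with mutant 1, described by strain names, and wild-type 2 with mutant 2, described with the word def. The adult pairs were wild-type 1 with mutant 2 (letter A), wild-type 2 with mutant 3 (letter B) and wild-type 3 with mutant 1 (bare names). The adult pair with bare names stood apart: across probe sets it correlated with the larval arrays at a mean of 0.903 (wild-type 3) and 0.891 (mutant 1), while the remaining 4 adult arrays lay between 0.830 and 0.837. Of the stage and tissue marker genes looked for, 4 could be named on these arrays (rol-6, mlt-8, ketn-1 and nlp-8). The cuticle collagen gene rol-6 read 10.95 to 12.80 in larvae, 10.60 and 8.62 on the adult bare-name pair and 7.43 to 8.20 on the other adults. The moulting gene mlt-8 read 10.54 to 11.90 in larvae, 10.65 and 8.89 on that pair and 5.90 to 8.20 on the other adults. ketn-1 read 6.62 to 8.07 in larvae, 7.52 and 8.21 on that pair and 6.23 to 7.51 on the other adults. nlp-8 read 7.19 to 7.5 in larvae, 7.04 and 9.0 on that pair and 6.09 to 6.6 on the other adults. Neither ketn-1 nor nlp-8 differed between stages at limma's adjusted p of 0.05 (limma adjusted p = 0.935 and 0.562). The poly-A spike-in control dap read 3.85 to 4.44 on that pair and on the larval pair with strain names, against 7.30 to 8.33 on the other 6 arrays. Present calls covered 11184 to 13939 probe sets per array, with the highest number on adult mutant 1. The part of these differences between arrays in the results below was not tested.

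All 3 genes were detected by the authors' calls. fasn-1 and fat-7 were called present on 10 of 10 arrays. elo-3 was called present on 9 of 10 and absent on larval mutant 1, so its value there lay in the background.

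fasn-1 was placed by the authors' calls on their list of probe sets increased in at least 3 of the 4 larval mutant and wild-type combinations, which held 0.195% of the probe sets. The larval genotype values therefore describe the choice of the gene and were not tested. fasn-1 read 10.96 and 9.76 on larval wild-type arrays 1 and 2 and 10.65 and 11.42 on larval mutant arrays 1 and 2, in RMA log2 values. Both the highest and the lowest of these values came from the pair described with def, and the genotypes overlapped. Within pairs the mutant lay 1.66 above wild-type in the def pair and 0.30 below it in the strain-name pair, a difference of −0.30. The authors' deposited table gave the same 4 combinations log2 ratios of 0.0, 1.1, 0.7 and 1.8, with an increased call in the last 3 of them.

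In the scaled signals of that deposited table, fasn-1 read 2630.7 and 2023.4 in larval wild-type and 2741.9 and 5764.3 in larval mutant arrays. Here the genotypes did not overlap, as for 21.3% of all probe sets in these signals, and the strain-name pair differed by a ratio of 1.04, against 2.85 in the def pair. The larval rise of fasn-1 thus rested on the def pair in both sets of values.

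In adults fasn-1 read 9.48, 10.01 and 10.91 on wild-type arrays 1 to 3 and 10.97, 10.31 and 9.59 on mutant arrays 1 to 3. Both arrays of the bare-name pair were the highest of their group, and the genotypes overlapped. The wild-type mean was 10.13 ± 0.72 (SD, n = 3) and the mutant mean 10.29 ± 0.69 (SD, n = 3). The mutant differed by 0.16 ± 0.50 (SE, 95% interval −0.99 to 1.31; limma adjusted p = 1.0), and an exact two-sided permutation test gave p = 0.7. The pairs gave 0.83 for letter A, −0.42 for letter B and 0.062 for the bare names. In scaled signals the mutant to wild-type ratios of the same pairs were 1.77, 0.693 and 0.827, so the bare-name pair changed direction between the 2 sets of values. The authors' deposited calls for the 9 adult combinations were 4 increased, 3 decreased and 2 without change.

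elo-3 was on the authors' list of probe sets decreased in at least 3 of the 4 larval combinations, which held 0.63% of the probe sets. It read 7.05 and 8.32 on larval wild-type arrays 1 and 2 and 6.19 and 7.47 on larval mutant arrays 1 and 2 in RMA log2 values. The 2 larval pairs lay at different levels, the strain-name pair lower than the def pair in both genotypes, so that larval mutant 2 was above larval wild-type 1. Within pairs the difference was −0.85 with def and −0.86 with the strain names, where the mutant value carried the absent call and lay in the background. The authors' deposited table gave log2 ratios of −1.6, −2.7, 0.0 and −1.0 for the 4 combinations and no decreased call for mutant 2 against wild-type 1, a combination that crosses the pairs.

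The scaled signals of elo-3 were 129.6 and 368.0 in larval wild-type and 31 and 278.5 in larval mutant arrays. The wild-type to mutant ratio was 1.32 in the def pair, the only larval pair with elo-3 called present on both arrays. No ratio is given for the strain-name pair, whose mutant signal had the absent call.

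In adults elo-3 read 7.97, 6.91 and 7.06 on wild-type arrays 1 to 3 and 6.80, 7.32 and 7.04 on mutant arrays 1 to 3. The letter A pair held the highest value of each genotype, and the genotypes overlapped. The adult means were 7.31 ± 0.57 (SD, n = 3) and 7.05 ± 0.26 (SD, n = 3). The mutant differed by −0.26 ± 0.45 (SE, 95% interval −1.29 to 0.78; limma adjusted p = 1.0), with an exact two-sided permutation p of 0.6. The pairs gave −0.65 for letter A, 0.13 for letter B and −0.26 for the bare names. In scaled signals the mutant to wild-type ratios were 0.758, 0.701 and 1.16, so the letter B and bare-name pairs had the opposite direction there. The authors' deposited calls for the 9 adult combinations were 6 without change, 2 decreased and 1 increased.

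fat-7 was on the authors' larval increased list. It read 10.21 and 10.47 on larval wild-type arrays 1 and 2 and 10.80 and 11.07 on larval mutant arrays 1 and 2. It was the only one of the 3 genes whose larval genotypes did not overlap in the RMA values, as was the case for 20.2% of all probe sets. The mutant lay 0.59 higher in each of the 2 larval pairs, a ratio of 1.51, and the deposited log2 ratios of the 4 combinations were 0.7, 0.5, 0.9 and 0.7. The group SDs were 0.19 in wild-type and 0.18 in mutant larvae. Nothing is read from these larval values, since the calls made from them chose the gene.

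In adults fat-7 read 11.12, 10.77 and 10.29 on wild-type arrays 1 to 3 and 8.0, 11.64 and 10.80 on mutant arrays 1 to 3. Adult mutant 2 held the highest and adult mutant 1 the lowest of all 10 values, so the mutant arrays spanned the whole range of the gene. The wild-type mean was 10.73 ± 0.41 (SD, n = 3) and the mutant mean 10.15 ± 1.90 (SD, n = 3). The mutant differed by −0.58 ± 0.78 (SE, 95% interval −2.36 to 1.21; limma adjusted p = 1.0), with an exact two-sided permutation p of 0.9.

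Array by array, the adult values of fat-7 split by pair. The mutant was higher by 0.52 in the letter A pair and by 0.036 in the letter B pair, and differed by −2.29 in the bare-name pair. In scaled signals the bare-name pair read 1727.3 in wild-type and 412.8 in the mutant, a ratio of 4.18 in favour of wild-type. The authors' deposited calls for the 9 adult combinations were 3 increased, 4 decreased and 2 without change. Without adult mutant 1 the adult difference of fat-7 turned to 0.49 with the same limma model, and without the bare-name pair to 0.28.

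**Figure D1:**
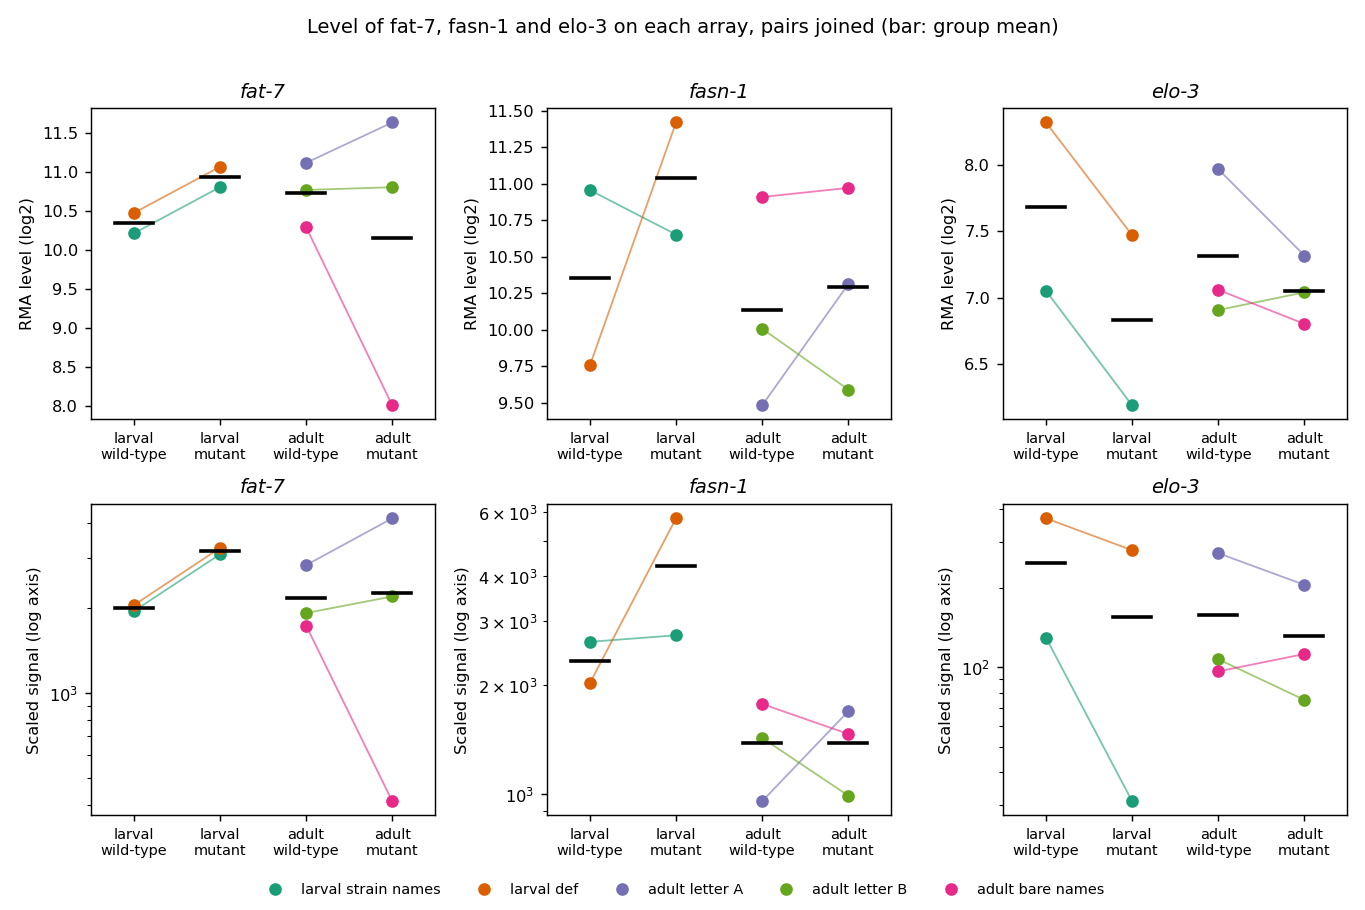
Level of fat-7, fasn-1 and elo-3 on each of the 10 arrays, as RMA log2 values (upper row) and as scaled signals on a log axis (lower row), by group. Points are arrays, thin lines join the arrays of a pair, and thick bars are group means. The fat-7 value of adult mutant 1, at 8.0 and 412.8, lies below all others of that gene, and the larval signals of fasn-1 all lie above its adult signals.

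Across the adult genotype comparison, none of the 3 genes passed the threshold of limma's adjusted p, 0.05, and 0.0% of all probe sets did. At an unadjusted p under 0.05, limma listed 69 of the 22548 probe sets, none of them a member. With the description pairs as a fixed block, which the main fit left out, it listed 623, and 0 passed the adjusted threshold. Both counts are below a share of 0.05, which such p-values give when no probe set differs and arrays are independent. The limma adjusted p-values are therefore not read as evidence of no difference. Adult genotypes did not overlap for 3.47% of all probe sets and for 0 of the 3 genes. With 3 arrays against 3, the 20 arrangements of an exact two-sided permutation test cannot give a p below 0.1. The intervals above still allow a change of more than 1 log2 unit in at least 1 direction for each gene. Neither they nor the permutation test used the pairs. With the pairs as a fixed block the differences were unchanged. The SEs became 0.49 for fat-7, 0.39 for fasn-1 and 0.19 for elo-3, and the limma adjusted p-values 0.937, 0.976 and 0.937. Intervals were not computed for that fit.

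**Figure D2:**
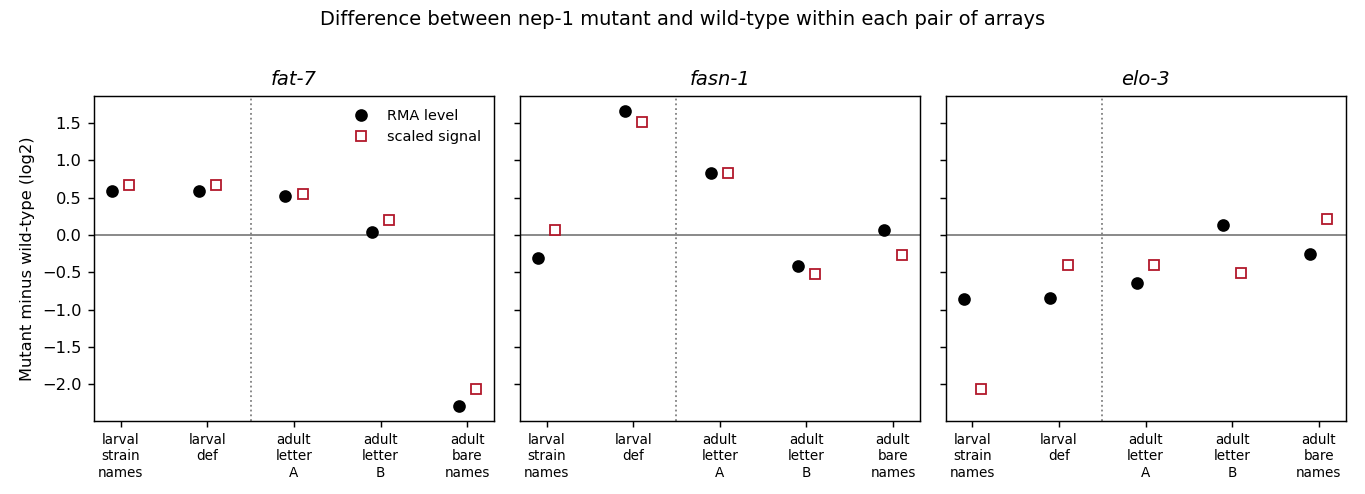
Mutant minus wild-type within each of the 5 pairs of arrays (log2), for RMA values (filled circles) and for the log2 ratio of scaled signals (open squares), with the larval pairs left of the dotted line. fat-7 lies at 0.59 in both larval pairs and at −2.29 in the adult bare-name pair, while fasn-1 reaches 1.66 in the larval def pair; both elo-3 points of the larval strain-name pair rest on a mutant value with the absent call.

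The stage comparison did not enter the choice of the genes, though the calls that listed them came from larval arrays. Adults and L3 larvae differed widely on these arrays: limma called 35.6% of the probe sets, 4459 higher and 3574 lower in adults, a split of 55.5% higher that became 45% after quantile normalisation and 47.4% after centring each array on its median. The count of 8033 fell to 5169, or 22.9%, with the 5 pairs as a random block, and to 3660 and 2467 in the scaled signals with 16 and 1 added. None of the 3 genes passed in the RMA values, and none reached an unadjusted p under 0.05 in limma. fasn-1 averaged 10.70 ± 0.70 (SD, n = 4) in larvae and 10.21 ± 0.64 (SD, n = 6) in adults, a difference of −0.48 ± 0.40 (SE, 95% interval −1.39 to 0.42; limma adjusted p = 0.368). elo-3 averaged 7.26 ± 0.88 (SD, n = 4) and 7.18 ± 0.42 (SD, n = 6), a difference of −0.08 ± 0.36 (SE, 95% interval −0.89 to 0.74; limma adjusted p = 0.884).

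fat-7 averaged 10.64 ± 0.37 (SD, n = 4) in larvae and 10.44 ± 1.27 (SD, n = 6) in adults. Its stage difference was −0.20 ± 0.62 (SE, 95% interval −1.61 to 1.21; limma adjusted p = 0.819). Without adult mutant 1 it was 0.33, on the other side of 0. Exact two-sided permutation tests over the 5 pair means, of which 10 arrangements exist and the smallest p is 0.1, gave p = 0.4 for fasn-1 and p = 1.0 for both elo-3 and fat-7.

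The scaled signals gave another picture for fasn-1. It read 2023.4 to 5764.3 on the 4 larval arrays and 955.9 to 1772.3 on the 6 adult arrays, with medians of 2686.3 and 1446.8. Larvae and adults did not overlap in the scaled signals for fasn-1, as for 17.9% of all probe sets, and overlapped for elo-3 and fat-7. On the scale log2(signal + 16), the stage difference of fasn-1 was −1.16 ± 0.31 (SE; limma adjusted p = 0.032), beside a median of −0.18 over all probe sets in the same values against −0.06 in the RMA values. With 1 added in place of 16 it was −1.17 (limma adjusted p = 0.068), beside a median of −0.32. Both differences, and the lack of overlap, use the larval arrays whose calls listed fasn-1 as increased in the mutant. With 16 added, adults minus larvae gave −0.77 in wild-type (limma adjusted p = 0.342) and −1.55 in the mutant (limma adjusted p = 0.101). The stage difference in these signals is therefore not independent of the choice of the gene. The 2 sets of values placed the adult bare-name pair differently: it read 10.91 and 10.97 in RMA values, within the larval range, and 1772.3 and 1465.0 in scaled signals, below every larva. Without that pair the RMA difference of fasn-1 was −0.85 (limma adjusted p = 0.075), and on the 6 arrays with the dap control it was −0.74. On the 4 arrays without dap, 1 of each group, it was 0.14, with no test. In RMA values 30.6% of probe sets had stages that did not overlap, and 0 of the 3 genes did.

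Within wild-type alone, adults minus larvae gave 0.38 for fat-7, −0.22 for fasn-1 and −0.37 for elo-3. In the mutant the same differences were −0.79, −0.74 and 0.22. Without adult mutant 1 that of fat-7 in the mutant was 0.28, and over fits without 1 array each that of fasn-1 lay between −1.13 and −0.36. None passed limma's adjusted p of 0.05, against 16.3% of the probe sets in wild-type and 16.9% in the mutant. The lowest limma adjusted p-value of the 3 genes was 0.392, for fasn-1 in the mutant. The authors' calls had listed fat-7 and fasn-1 as increased and elo-3 as decreased in larval mutants. The larval means therefore describe that choice in part, and nothing is read from the signs of these differences.

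**Figure D3:**
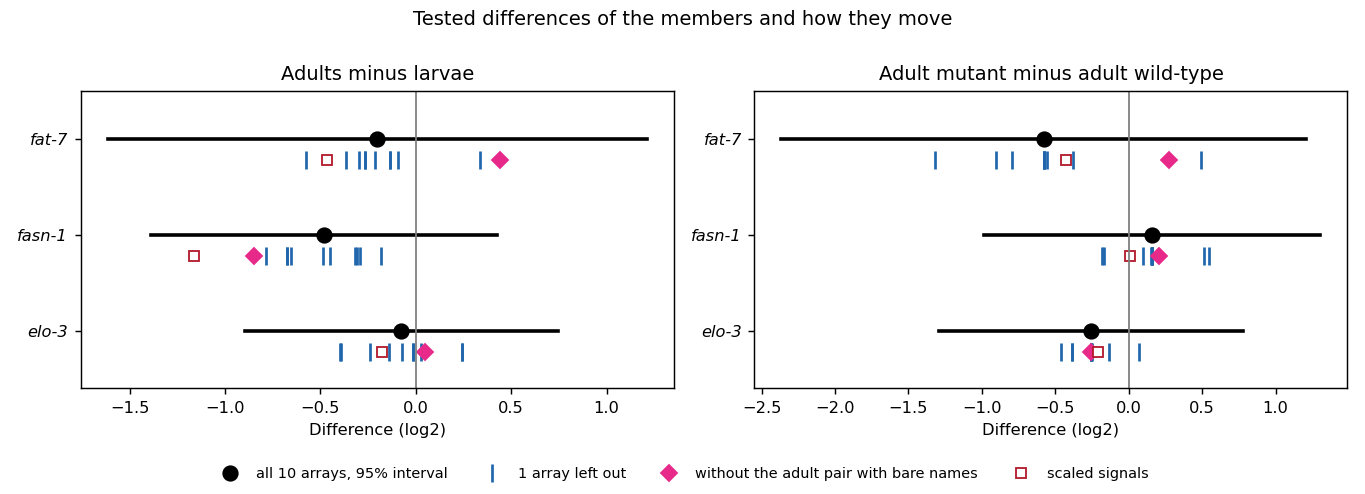
Tested differences of the 3 genes (log2) between adults and larvae (left) and between adult mutant and adult wild-type (right). Black circles with lines are the limma estimate and its 95% interval over all 10 arrays, ticks leave out 1 array each, diamonds leave out the adult bare-name pair, and squares use the scaled signals. Every interval crosses 0, and fat-7 changes side without adult mutant 1 in both comparisons.

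The 3 genes varied more between arrays of one group than most probe sets. The within-group SD was 1.13 for fat-7, larger than that of 96.8% of the probe sets, 0.71 for fasn-1, larger than 87.1%, and 0.63 for elo-3, larger than 82.8%; the median over all probe sets was 0.35. The spread lay at different stages. That of fat-7 lay in adults, at 1.38 against 0.18 in larvae, that of elo-3 was larger in larvae, at 0.90 against 0.44, and that of fasn-1 was 0.71 at both stages.

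The value of fat-7 on adult mutant 1 was 2.21 below its lowest value on the other 9 arrays. Only 5 of the 22548 probe sets, fat-7 included, had a gap of that size or more on this array, where 11.4% of the probe sets had their lowest value. After these values were seen, the named genes with a gap of at least 1 were looked up, and besides fat-7 they were gst-10 at 2.02, acox-1.2 at 1.73, F16B4.4 at 1.35, cyp-35C1 at 1.34 and Y48E1B.8 at 1.28. gst-10 encodes a glutathione S-transferase, acox-1.2 a peroxisomal acyl-CoA oxidase and cyp-35C1 a cytochrome P450. The same array had the most present calls, 61.8% of the probe sets, and the largest 3′ minus 5′ difference of the control probe sets, 1.32 against 0.82 to 1.17 on the others. The part of these array properties in the fat-7 value was not tested. fasn-1 and elo-3 did not share the gap. fasn-1 had its highest adult RMA value there, 10.97, while its scaled signal of 1465.0 lay within the range of the other adults. elo-3 read 6.80 in RMA values, the lowest of the 6 adult arrays and above larval mutant 1, where it was called absent. On adult mutant 1 its scaled signal of 112.3 lay within the range of the other adults, 75.2 to 271.3.

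Over the 10 arrays the 3 genes did not move as a unit. Pearson's r was −0.34 between fat-7 and fasn-1, 0.26 between fat-7 and elo-3 and −0.43 between fasn-1 and elo-3. Without adult mutant 1, over 9 arrays, these were −0.19, 0.10 and −0.38. They are descriptions of arrays that share pairs, stages and genotypes.

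Among the other 144 named genes, each represented by its listed probe set of the highest mean, the pattern most like that of fat-7 over the 10 arrays was that of F16B4.4 (r = 0.90), followed by gst-10 (0.81), dhgd-1 (0.71) and the collagen gene col-142 (0.69). Most opposed were nlp-8 (−0.84), a neuropeptide-like protein gene, and henn-1 (−0.76), which encodes a small RNA methyltransferase. Without adult mutant 1 these became 0.62, −0.13, 0.27 and 0.68, and −0.40 and −0.16, so that only F16B4.4 and col-142 kept an r above 0.6 with fat-7. nlp-8 read 9.0 on adult mutant 1 and 6.09 to 7.5 on the others.

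The pattern most like that of fasn-1 was that of ketn-1 (r = 0.80), a gene of a muscle protein, followed by Y41G9A.5 (0.79), the bZIP factor gene atf-8 (0.77) and T02B11.4 (0.71). The most opposed were ugt-63 (−0.82), of the glucuronosyltransferase family, and R07E5.4 (−0.69). For elo-3 the closest were paic-1 (0.90), T01D1.4 (0.78), the hedgehog-related gene grd-5 (0.74) and T05E7.1 (0.73), and the most opposed pitr-1 (−0.82), of a phosphate transporter family, and C15A11.7 (−0.72). Without adult mutant 1 all 12 values kept their sign, and C15A11.7 moved furthest, to −0.80. For comparison, 0.909% of all probe sets reached an r of 0.8 or more with fat-7, 0.537% with fasn-1 and 0.217% with elo-3.

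A list of 47 genes was drawn up for fatty acid synthesis. It also held acyl-CoA synthetases, regulators and enzymes of phospholipid and triglyceride assembly. Of the 47, 5 could be named on these arrays, the 3 genes above with acs-20 and acs-22. The latter encode acyl-CoA synthetases of the fatty acid transport protein family. All 5 had been listed by the authors for their larval calls on these arrays. Between stages 1 of the 5 was lower in adults and 0 were higher past limma's threshold, beside 35.6% of all probe sets called in either direction. The median difference of the 5 was −0.48 against −0.06 over all probe sets, and −0.85 against −0.09 without the adult bare-name pair. The 5 were named through calls on larval arrays and the other probe sets were not. Nothing is therefore read from these medians, or from the stage values of acs-20 and acs-22 that follow. acs-20 averaged 8.75 in larvae and 6.41 in adults, a difference of −2.34 ± 0.54 (SE; limma adjusted p = 0.011). With the 5 pairs as a random block acs-20 still passed (limma adjusted p = 0.025). Without the adult bare-name pair 2 of the 5 passed, beside 47.2% of all probe sets, acs-22 joining at −1.40 (limma adjusted p = 0.012) from −1.0 in all arrays. Between adult genotypes 0 of the 5 passed, with a median of −0.01 against −0.02, which became 0.21 against −0.02 without the bare-name pair.

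Genes of fat breakdown and transport were taken by the beginnings of their symbols, such as acox-, acdh-, lips- and lbp-, and 6 of them could be named. Between stages 2 were higher and 2 lower in adults past limma's threshold, beside 4459 higher and 3574 lower of the 22548 probe sets. acdh-2, an acyl-CoA dehydrogenase gene, was higher by 2.69 (limma adjusted p = 0.002), and atgl-1, which encodes the triglyceride lipase of fat stores, by 1.64. acdh-2 could be named only through a list made from adult arrays. Its larval mean of 4.29 lay below the medians of the larval arrays, 5.83 to 5.91. acox-1.2 differed by −2.01 (limma adjusted p = 0.011) and the lipase gene lips-9 by −2.60 (limma adjusted p = 0.009). lbp-3, which encodes a fatty acid binding protein, and lips-3, a lipase gene like lips-9, did not pass, at −0.43 and −1.55, though lips-3 passed at −2.28 without the bare-name pair (limma adjusted p = 0.024). With the pairs as a random block the same 4 genes passed, with limma adjusted p-values up to 0.042. atgl-1, lbp-3, lips-3 and lips-9 could be named only through lists made from larval arrays, and acox-1.2 through lists of both stages. The stage at which a gene was listed is not independent of its level there, so nothing is read from these stage directions.

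Between adult genotypes 0 of these 6 passed, with a median of −0.36 against −0.02 over all probe sets. Calls on these same adult arrays had put acdh-2 and acox-1.2 on the authors' adult decreased list, so the median describes that choice in part. Without the bare-name pair that median was −0.07 against −0.02. Beside the −2.29 of fat-7 in the adult bare-name pair, acdh-2 stood at −2.79, acox-1.2 at −2.60, lips-9 at −1.32, lips-3 at −1.26, acs-20 at −0.69 and elo-3 at −0.26 in that pair, while atgl-1 was at 0.31, lbp-3 at 0.069, fasn-1 at 0.062 and acs-22 at 0.11. In the letter B pair fat-7, acdh-2, acox-1.2, lips-9 and lips-3 lay between −0.59 and 0.31. In the letter A pair acox-1.2 was at −1.10, fat-7 at 0.52, acdh-2 at −0.40, lips-9 at −0.30 and lips-3 at 0.18. acdh-2 was on the authors' adult decreased list alone, and acox-1.2 on that list and on the larval decreased list. The adult pair values of both genes thus come from the arrays whose calls chose them.

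**Figure D4:**
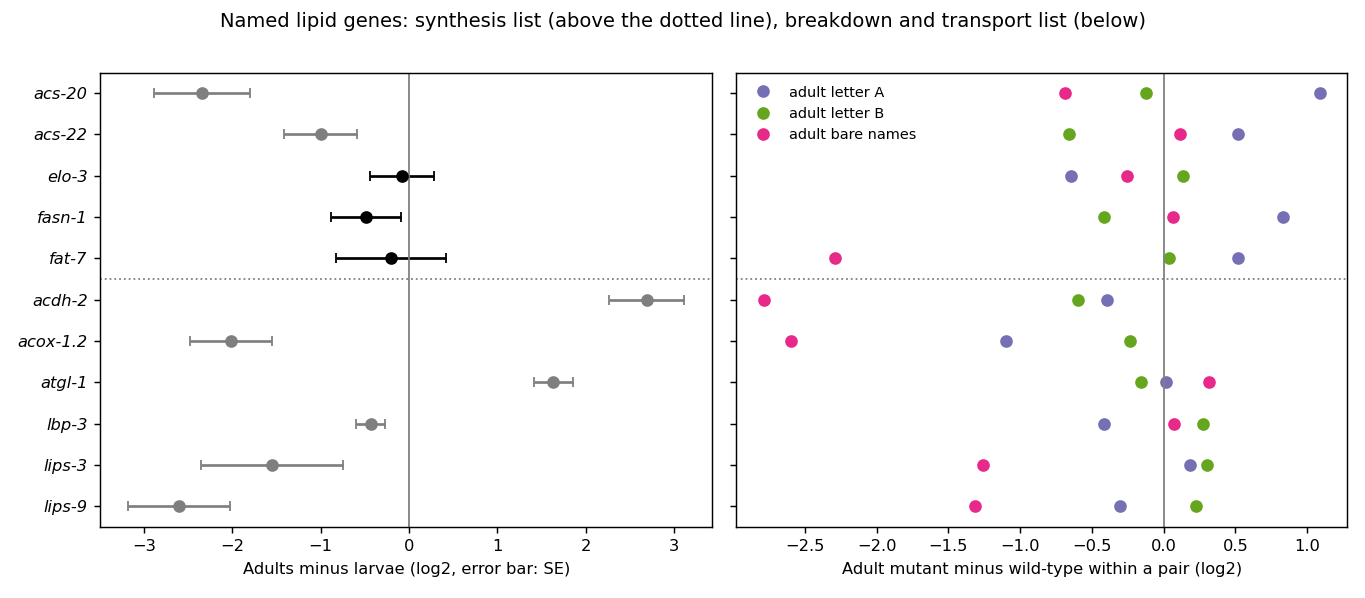
The 11 named lipid genes, with the 3 described genes in black: adults minus larvae with the SE from limma (left), and adult mutant minus wild-type within each of the 3 adult pairs (right), both in log2. In the bare-name pair fat-7, acdh-2 and acox-1.2 lie at −2.29, −2.79 and −2.60. The authors had listed acdh-2 and acox-1.2 for decreased calls on these adult arrays.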

How the data were processed

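RMA produced the authors' deposited log2 values, per the submitters' processing notes; its version is not given in the sources used here. Scaled signals, detection calls and, for each mutant and wild-type combination, a log2 ratio and a change call came from the authors' deposited tables, per the file headers. A further 50 columns were not used. Of 22625 probe sets, 77 controls were left out. Names came from the gene numbers in the authors' lists, which name 152 of their 196 probe sets through a RefSeq table of assembly WBcel235. limma 3.58.1 (R 4.3.3) fitted 4 group means over 10 arrays (6 residual and 2.57 prior degrees of freedom), with Benjamini-Hochberg adjustment across every tested probe set and a threshold of 0.05. The stage difference is the mean of the adult minus that of the larval groups. Exact permutation tests enumerated every arrangement in Python 3.11.15 with numpy 2.4.6. The script was tested on simulated data. The number of arrays limits the precision.

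The genes and lists were chosen with earlier results of these data known. Named were the 3 genes, the lists' named members, the 4 most similar and 2 most opposed genes of each, and nep-1. Same-numbered adult arrays did not deviate together, with correlations of their deviations from group means of −0.54, −0.22 and −0.65. Arrays matched by description correlated at 0.56 in larvae and 0.61 to 0.65 in adults. Alternatives were other normalisations, filters, variance models, array weights, blocks, the scaled signals and leaving out arrays. The dap alternatives, and the list counts without the bare-name pair, with dap or with the pairs as a block, were chosen after seeing the data.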

Additional observations from a re-analysis of the deposited data

How the results depend on the processing

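Over fits without 1 array each, the stage difference lay between −0.57 and 0.33 for fat-7, −0.78 and −0.18 for fasn-1 and −0.40 and 0.24 for elo-3. The adult genotype difference moved between −1.32 and 0.49 for fat-7, −0.18 and 0.55 for fasn-1 and −0.46 and 0.070 for elo-3, and the larval one between 0.46 and 0.72, 0.08 and 1.28, and −1.49 and −0.21. Within wild-type the stage difference moved between −0.82 and 0.38 for fasn-1 and −1.01 and 0.26 for elo-3, and in the mutant between −1.53 and 0.28 for fat-7 and −0.42 and 0.86 for elo-3. Without the bare-name pair the stage difference was 0.44 for fat-7 and 0.050 for elo-3, that of fat-7 in the mutant 0.28 and its adult genotype difference 0.28. Array weights gave 0.30, 0.092, 0.050 and 0.090 for the same 4. The 6 arrays with dap gave stage differences of 0.31 for fat-7, 0.15 for fat-7 and −0.29 for elo-3 in the mutant, and an adult genotype difference of 0.28 for fat-7. The 4 arrays without dap gave stage differences of −1.36 for fat-7, 0.14 for fasn-1, 0.31 for elo-3, 0.32 for fasn-1 in the mutant and 0.0065 for elo-3 in wild-type, and −2.29 for fat-7 between adult genotypes. Quantile normalisation gave −0.15 for elo-3 between stages in the mutant. The cause of these changes was not tested.

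The stage difference of fasn-1 passed the threshold in limma only with log2(signal + 16), at −1.16. That value includes larval arrays whose calls had chosen the gene. The limma adjusted p of fasn-1 ranged from 0.032 to 0.786 over the 23 tested alternatives. In limma, fat-7 ranged from 0.137 to 0.924 and elo-3 from 0.232 to 0.989. The stage count of 8033 probe sets became 3660 and 2467 with the scaled signals plus 16 and plus 1, 5169 with the description pairs as a random block (correlation 0.528), and 5358 to 10409 without 1 array. The adult genotype count was 0 in every limma fit. The title numbers as a replicate block gave stage differences of −0.26 for fat-7, −0.50 for fasn-1 and −0.01 for elo-3 and changed no call of these genes. No other listed probe set of the 3 genes exists, so that alternative gave no value. Groups of 2 or 3 arrays and signals near background, as for elo-3 on larval mutant 1, limit these values.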
